A study of Homo sapiens with 8 samples.

Results

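In vehicle-treated NCI-H295R cells, 1420 of 12525 open-chromatin peaks at the ends of protein-coding genes were absent from the peak list of at least 1 of 3 drug treatments. NCI-H295R is an established human adrenocortical carcinoma line that keeps the steroid-making program of the adrenal cortex. The members were chosen by the lists themselves: a vehicle peak entered when its summit lay no more than 1 kb from a start or 3′ end that RefSeq gives for a protein-coding gene, and when no peak of at least 1 treated list overlapped it by 1 bp. Such a peak is called lost from that list below, which describes the lists only, since a region just under the peak caller's threshold is also absent. The vehicle list held 61016 peaks in all, of which 20.5% lay at a gene end.

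The assay was ATAC-seq, in which the Tn5 transposase cuts DNA that is not wrapped in nucleosomes, so that peaks of cuts mark open promoters, enhancers and other regulatory DNA. There were 8 libraries in 4 groups, each of 2 biological replicates. Vehicle cells received DMSO for 96 h. The EZH2i group received 62 µM EPZ-6438, an inhibitor of EZH2, the methyltransferase of the Polycomb repressive machinery that places the repressive H3K27 methyl mark, for 96 h. The CBPi group received 26 µM PRI-724, described by the labels as an inhibitor of the coactivator CBP, for 96 h, and both inhibitors were given at their IC-50 doses. The FSK group received vehicle for 48 h and then 10 µM forskolin, which activates adenylyl cyclase and so raises cAMP, for 48 h. Time in drug therefore differed between forskolin and the inhibitors, and each agent was given at 1 dose in 1 cell line. Each group was deposited as 1 peak list, with 41086 peaks for EZH2i, 47161 for CBPi and 51095 for FSK, so there was no spread between replicates, the sequencing depth is unknown and no difference between lists could be tested. The intervals given are Wilson 95% intervals for counting error alone, and they take each peak as independent of its neighbours. In bulk chromatin, less opening in every cell and opening in fewer cells cannot be told apart.

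Promoters fall broadly into a class rich in CpG dinucleotides, typical of broadly active genes and open in most cells, and a class poor in CpG, typical of genes used in few cell types. A gene's start normally carries the stronger open site, whereas the end of transcription is open less often and can hold an enhancer, another promoter or the start of a neighbouring gene. Peaks are named here by the protein-coding gene whose annotated end is nearest to the summit, which does not show that the peak acts on that gene.

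The promoter windows below show the range of sequence under the lost peaks, from CpG-poor to CpG-rich. Each runs from 250 bases before to 50 after an annotated start, is taken from RefSeq on GRCh38.p14 and is written 5′ to 3′ on the gene's strand, with the C and G of each CpG in capitals. EGF, GNRHR, KCNK2, CNPPD1 and B3GALNT1 had the largest peak area, within their combination of lists, among named members whose summit lay in a window of their own gene. MC2R and SP5 were added after their values were seen, for their place in adrenal and Wnt biology. The windows lie at chr18:13915487-13915786, minus strand (MC2R), chr2:170715087-170715386, plus strand (SP5), chr4:109912633-109912932, plus strand (EGF), chr4:67754339-67754638, minus strand (GNRHR), chr1:215005292-215005591, plus strand (KCNK2), chr2:219177772-219178071, minus strand (CNPPD1) and chr3:161105029-161105328, minus strand (B3GALNT1).
MC2R: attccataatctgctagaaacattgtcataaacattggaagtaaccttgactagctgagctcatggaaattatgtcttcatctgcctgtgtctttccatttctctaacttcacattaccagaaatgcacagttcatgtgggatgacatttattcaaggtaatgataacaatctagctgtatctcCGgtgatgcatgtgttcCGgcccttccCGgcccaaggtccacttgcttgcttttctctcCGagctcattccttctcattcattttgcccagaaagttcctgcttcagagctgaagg
SP5: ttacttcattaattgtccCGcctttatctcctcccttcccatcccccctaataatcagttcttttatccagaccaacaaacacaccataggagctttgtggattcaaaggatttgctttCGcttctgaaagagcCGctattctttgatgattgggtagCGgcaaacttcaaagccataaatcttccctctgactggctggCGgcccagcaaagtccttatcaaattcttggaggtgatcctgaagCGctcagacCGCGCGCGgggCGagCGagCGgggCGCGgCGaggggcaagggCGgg
EGF: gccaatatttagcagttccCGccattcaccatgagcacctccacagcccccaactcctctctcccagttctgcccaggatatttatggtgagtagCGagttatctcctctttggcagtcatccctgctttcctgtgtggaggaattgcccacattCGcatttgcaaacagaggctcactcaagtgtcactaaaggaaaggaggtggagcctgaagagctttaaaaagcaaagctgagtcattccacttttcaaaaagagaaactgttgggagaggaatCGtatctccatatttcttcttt
GNRHR: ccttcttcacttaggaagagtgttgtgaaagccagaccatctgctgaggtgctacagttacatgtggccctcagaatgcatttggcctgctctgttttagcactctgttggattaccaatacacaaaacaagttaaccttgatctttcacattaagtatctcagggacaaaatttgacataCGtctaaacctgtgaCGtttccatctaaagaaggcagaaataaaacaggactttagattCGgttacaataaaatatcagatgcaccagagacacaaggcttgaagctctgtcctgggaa
KCNK2: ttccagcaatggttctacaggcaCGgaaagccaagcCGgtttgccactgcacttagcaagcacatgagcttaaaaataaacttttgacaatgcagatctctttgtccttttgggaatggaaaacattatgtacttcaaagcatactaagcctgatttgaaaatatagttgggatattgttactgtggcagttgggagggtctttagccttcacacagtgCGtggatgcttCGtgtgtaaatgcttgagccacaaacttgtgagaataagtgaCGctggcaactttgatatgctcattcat
CNPPD1: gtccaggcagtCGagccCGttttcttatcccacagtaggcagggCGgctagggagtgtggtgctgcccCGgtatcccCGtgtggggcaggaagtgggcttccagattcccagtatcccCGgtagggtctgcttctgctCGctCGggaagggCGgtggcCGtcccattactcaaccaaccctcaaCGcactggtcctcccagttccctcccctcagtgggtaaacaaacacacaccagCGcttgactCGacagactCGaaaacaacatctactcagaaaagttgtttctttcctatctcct
B3GALNT1: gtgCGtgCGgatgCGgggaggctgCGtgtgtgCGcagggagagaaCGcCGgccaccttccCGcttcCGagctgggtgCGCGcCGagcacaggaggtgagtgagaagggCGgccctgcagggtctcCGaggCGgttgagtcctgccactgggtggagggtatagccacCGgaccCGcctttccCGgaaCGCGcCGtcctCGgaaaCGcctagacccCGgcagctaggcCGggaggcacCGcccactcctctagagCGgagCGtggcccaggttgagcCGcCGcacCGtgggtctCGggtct

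Among these windows, GNRHR had 3 CpG, EGF and MC2R each had 4, and KCNK2 had 5. CNPPD1 had 14, SP5 had 17 and B3GALNT1 had 32. The MC2R summit lay 98 bases before the start, and the window held the GATA letters GATAA at bases -88 to -84, counting the start base as 0. On either strand, 18.6% of all promoter windows hold GATAA, and the SP5, EGF and CNPPD1 windows held it on the other strand. The SP5 window held the TCF/LEF letters CTTTGAT at bases -109 to -103, letters that 1.99% of all 22132 promoter windows hold on either strand. KCNK2 also held CTTTGAT, at bases 31 to 37. B3GALNT1 and CNPPD1 each held the GC-box letters GGGCGG on 1 strand or the other at a pair of positions, as 56.3% of all windows did at least once. These matches describe letters and do not show that a factor binds.

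The EZH2i list lacked 1029 gene-end vehicle peaks (8.22%, interval 7.75 to 8.71), the FSK list 1011 (8.07%, 7.61 to 8.56) and the CBPi list 518 (4.14%, 3.801 to 4.50). Over all vehicle peaks the shares absent were 37.7% for EZH2i, 30.6% for CBPi and 30.2% for FSK, and 47.4% were absent from at least 1 list, against 11.3% of gene-end peaks. These contrasts chose the members, so the shares are descriptive. The order of the lists depended on their lengths: with every list shortened to its 41086 peaks of largest area, FSK lacked 567, EZH2i 278 and CBPi 186.

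By combination of lists, 330 members were absent from EZH2i and FSK and 327 from all 3 treated lists. A further 314 were absent from FSK alone, 258 from EZH2i alone and 114 from both inhibitor lists but not FSK. Absence from CBPi without EZH2i was rare, with 40 members absent from CBPi and FSK and 37 from CBPi alone. Of the CBPi losses, 85.1% were also EZH2i losses and 70.9% also FSK losses. Of the EZH2i losses, 63.9% were shared with FSK and 42.9% with CBPi, and of the FSK losses, 65.0% were shared with EZH2i and 36.3% with CBPi. All of these overlaps use the same vehicle list, and no test of them was made.

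**Figure D1:**
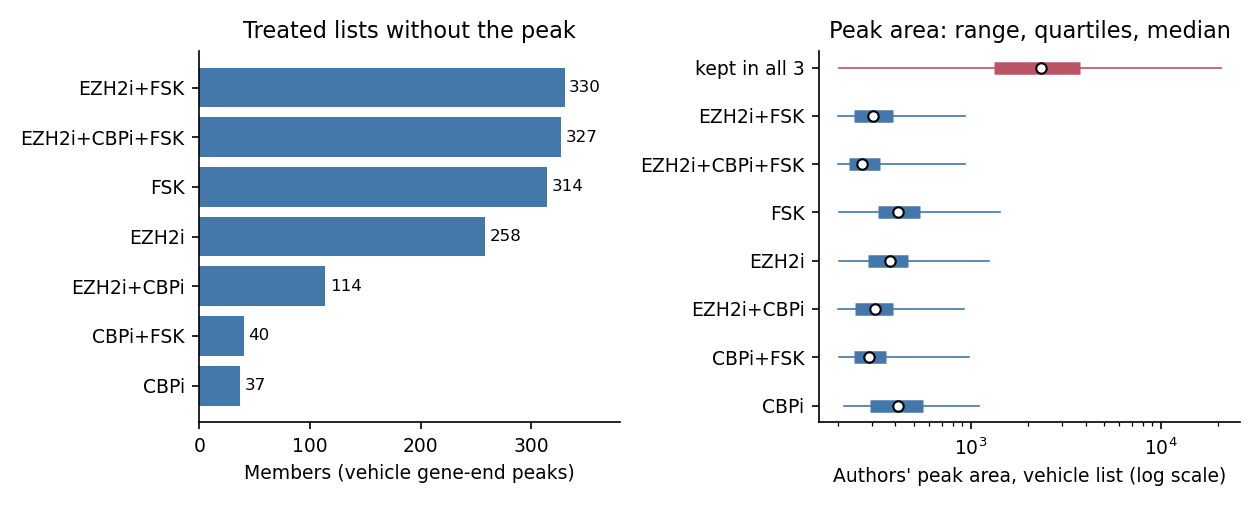
Left, number of lost gene-end peaks by the combination of treated lists that lacked them. Right, the authors' peak area in the vehicle list on a log axis, as range (line), quartiles (bar) and median (point). Medians of all 7 combinations lie between 266.4 and 412.3, below the lower quartile of 1321.8 for the 11105 peaks kept in all 3 lists.

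Lost peaks were the small ones. Their median area, the authors' summed significance over a peak, was 327.3 (quartiles 252.1 and 437.7, range 200 to 1417.8) in the vehicle list, against 2326.2 for kept gene-end peaks. Median width was 411 bp against 1234 bp, and the median of the authors' −log10 p was 3.84 against 6.40. Peaks absent from all 3 lists had the smallest median area, 266.4, and peaks absent from FSK alone or CBPi alone the largest, 412.3 and 412.1. Only 150 members (10.6%) exceeded the median area of all vehicle peaks, 581.4.

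When gene-end peaks were ranked by area in 10 equal groups, 78.4% of the lowest group (982 of 1253) were lost, then 30.6% (383 of 1252), 3.99% (50 of 1253) and 0.399% (5 of 1252). None of the peaks in the other 6 groups was lost. Peaks away from gene ends with areas in the same 4 ranges were lost more often, at 90.6%, 56.8%, 21.7% and 6.52%, and the intervals did not overlap in any range. Their number fell over the ranges, from 19935 to 13504, 6968 and 3100, whereas the gene-end groups were of equal size. Area inside a range was therefore not matched between the 2 sets. Each list ends at a lower limit of area, so area is tied to the choice of members and is given only as a description.

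Most losses left no treated peak nearby. The nearest peak of the list concerned lay a median of 10132 bp away for EZH2i, 10366 bp for CBPi and 9770 bp for FSK, and beyond 10 kb for 50.1%, 51.2% and 49.3% of losses. A treated peak lay within 500 bp of 187 EZH2i losses (18.2%), 70 CBPi losses (13.5%) and 167 FSK losses (16.5%). Just outside an overlap were RHBDL3 (21 bp from an EZH2i peak), KDM6A (6 bp, CBPi) and SPHK1 (38 bp, FSK). Just inside, as kept peaks, were RPL10 with 19 bp shared, SEC16B with 44 bp and SNAI2 with 79 bp.

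Where a member was still listed, it was usually a small peak there too. The 314 peaks absent from FSK alone had a median rank at which 74.8% of EZH2i peaks and 57.7% of CBPi peaks were larger. For the 258 absent from EZH2i alone, 67.4% of CBPi peaks and 77.3% of FSK peaks were larger at the median. Kept gene-end peaks had medians of 19.2% in EZH2i, 15.99% in CBPi and 15.97% in FSK. Of the members listed in CBPi, 10.98% overlapped a peak that also covered another vehicle peak, with 7.93% in EZH2i and 9.29% in FSK. Areas are comparable within a list only, so these ranks show where a peak stood in its own list and no change between lists.

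Position at the gene set the lost peaks apart. Of 9612 peaks at a gene start, 752 were lost (7.82%, 7.30 to 8.38), whereas of 758 peaks near a 3′ end and no start, 369 were lost (48.7%, 45.1 to 52.2). The remaining 299 members were among 2155 peaks near genes whose strand was not given in the promoter table (13.9%). The 3′-end peaks were smaller, with a median area of 502.4 against 2265.7 at starts, but a difference remained inside the area groups. These groups do not match the 2 classes in area. Over the 3 lowest, the number of 3′-end peaks fell from 298 to 210 and 113. The number of start peaks rose from 680 to 778 and 884. Areas of the 2 classes inside a group were not compared. In the lowest area group 88.3% of 3′-end peaks and 74.7% of start peaks were lost, in the next 42.4% and 27.5%, and in the next 13.3% and 3.05%, with intervals that did not overlap. In the group above these the shares were 3.57% and 0.308%. The 3′-end share lost was the higher under every alternative rule tried, including equal list lengths (31.0% against 4.55%).

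**Figure D2:**
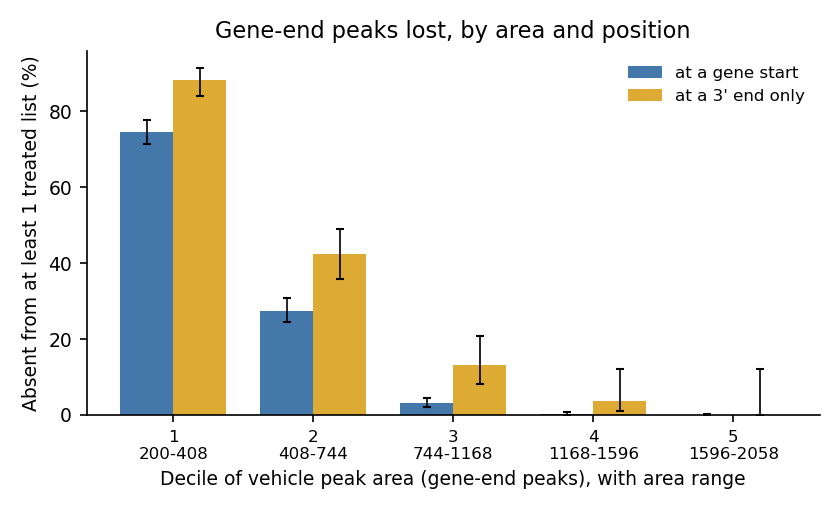
Share of gene-end vehicle peaks absent from at least 1 treated list, in the 5 lowest of 10 equal groups by vehicle area, for peaks at a gene start and at a 3′ end only. Bars start at 0 and error bars are Wilson 95% intervals. The 3′-end bar is the higher in each of the 4 lowest groups, and both are 0 in the group from 1596.3 to 2058.1.

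The combinations also differed in position. Among members of known strand, 48.0% of those absent from all 3 lists lay at a 3′ end only (129 of 269, 42.1 to 53.9), against 19.5% of those absent from FSK alone (15.0 to 25.0). Peaks absent from EZH2i alone stood between, at 30.5%. Kept peaks were at a 3′ end in 4.21% of cases. At starts, lost peaks were off-centre: the summit lay a median of 201.5 bp from the start, against 97 bp for kept peaks and 93 bp for kept peaks no larger than the largest member. The share within 250 bp was 53.9%, 75.7% and 73.4% in the same order.

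Most genes with a lost 3′-end peak kept an open start. For 262 of 369 such members (71.0%), the nearest gene had an annotated start under a vehicle peak that all 3 lists kept. Members nearest to a start came with such a kept start in 230 of 731 cases (31.5%). These shares are not comparable, because a member nearest to a start is itself a lost peak near that start. No such share was computed for kept 3′-end peaks. In all, 1487 of 12937 genes with a gene-end peak had a member (11.5%), and 606 of the 1487 had another gene-end peak that every list kept. Every gene-end peak was a member at 881 genes. All gene-end vehicle peaks were absent in the EZH2i list for 586 genes, in FSK for 626, in CBPi for 290 and in all 3 for 163. Of those 163, no treated list had any peak within 1 kb of either end for 150.

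The largest peak absent from all 3 lists lay at SLC7A11 (chr4:138164341-138165062), the transport subunit of the cystine/glutamate exchanger. Its vehicle area was 930.3, which 33.7% of vehicle peaks exceeded, and the nearest treated peaks were 65848 bp (EZH2i), 65853 bp (CBPi) and 16130 bp (FSK) away. SLC7A11 had 1 other gene-end vehicle peak, which was no member. Next came FGD5, a guanine nucleotide exchange factor known from endothelium, with 679.8, and an uncharacterised LOC124901483 with 666.5. NDUFA5 (a subunit of respiratory complex I) had 659.8, SGK1 (a kinase induced by glucocorticoid and cAMP) had 635.4 and EGF (epidermal growth factor) had 597. The summit of the NDUFA5 peak also lay in a promoter window of ASB15, 85 bases before an annotated ASB15 start. PAX5 (the B-cell transcription factor) had 593.8, ZNF648 had 571.6 and C5orf24 had 557. At NDUFA5, SGK1, ZNF648 and C5orf24 an annotated start of the gene lay under a vehicle peak that every list kept. EGF had no other gene-end vehicle peak, and its nearest treated peaks lay over 10 kb away in every list. ZNF648 differed, with treated peaks 528 bp, 379 bp and 343 bp from the lost one.

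Peaks absent from FSK alone included the largest members. PRSS23 (chr11:86790051-86790795), a secreted serine protease, had an area of 1417.8 in vehicle, 1467.9 in EZH2i and 2053.8 in CBPi, and the nearest FSK peak was 9264 bp away. The CBPi peak, 1834 bp wide, also overlapped the other PRSS23 member (562), so its area is not that of 1 vehicle peak. RYR2, the ryanodine receptor of heart muscle, had 1293.9, 446.2 and 483.3 at its 3′ end. CAV1, the main coat protein of caveolae, had 1259.1, 585.9 and 713.3, also at its 3′ end, and an annotated CAV1 start lay under a kept peak. TAS2R42, a bitter taste receptor, had 1236.6, 272.2 and 529.3, and the transcription factor ATOH8 had 1153.4, 1233.3 and 1940.8. KCNK2, a leak potassium channel, had 891.8, 446.7 and 557.5, with the nearest FSK peak 76097 bp away. As at CAV1, an annotated start of PRSS23, of RYR2 and of KCNK2 lay under a kept peak. Ranks of these members in the lists that held them ran from ATOH8, below only 20.8% of CBPi peaks, to TAS2R42, below 83.2% of EZH2i peaks. The shared CBPi peak at PRSS23 is left out of this range.

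Absent from EZH2i alone were CNPPD1 (chr2:219177675-219178721) with a vehicle area of 1242.1, PCDHB1 with 1100.2, LOC124903319 with 1090.9, P2RX7 with 1048.6 and GNE with 1046.8. P2RX7, an ATP-gated cation channel, had its summit 52 bp from the start, with areas of 843.3 in CBPi and 299 in FSK and the nearest EZH2i peak 36342 bp away. GNE, the first enzyme of sialic acid synthesis, had the peak beyond its 3′ end and kept an open start. At CNPPD1 an EZH2i peak lay 379 bp away, and an annotated CNPPD1 start lay under a kept peak. PCDHB1, a clustered protocadherin of the neuronal surface, had 741.3 in CBPi and 527.5 in FSK and its nearest EZH2i peak was 9258 bp away.

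EZH2i and FSK together lacked CLK2 (a kinase of splicing factors, chr1:155263162-155264023) with 925.4, SLC7A5 (the LAT1 amino acid transporter) with 807.4, CATSPERB with 800, PPIG with 788.7 and KMO (an enzyme of tryptophan breakdown) with 732.4. The SLC7A5 summit was 53 bp from the start, its CBPi area was 473.6, and the nearest EZH2i and FSK peaks lay 80991 bp and 18539 bp away. CLK2 was a near miss, with EZH2i and FSK peaks 334 bp and 420 bp away. The inhibitors together lacked CLRN2 with 916.6, GRIA3 (an AMPA glutamate receptor subunit) with 867.5, GNRHR (the gonadotropin-releasing hormone receptor) with 816.6, and SULT1B1 and RANBP3L with 697.3 each. The GNRHR peak (chr4:67753822-67754670) was listed with 720 in FSK and lay 52309 bp and 52021 bp from the nearest EZH2i and CBPi peaks.

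Absent from CBPi alone were FABP5 (a fatty-acid carrier, chr8:81280397-81281658) with 1099.0, GALNTL6 with 872.1, KAZN with 792.4, SCARA3 with 668.1 and SEMA3E (a guidance semaphorin) with 662.6. The nearest CBPi peak was 44849 bp away at FABP5 and 182642 bp away at GALNTL6, whose summit lay 84 bp from the start. An annotated KAZN start lay under a kept peak. CBPi and FSK together lacked ADRA2A (the alpha-2A adrenergic receptor, chr10:111079465-111080580) with 976.6, B3GALNT1 (a glycolipid galactosaminyltransferase) with 586.3 and HRH2 (a histamine receptor coupled to cAMP) with 568.1. CXCL14 with 488.9 and RNF17 with 450.5 completed that set. These groups hold few peaks, and the EZH2i areas of B3GALNT1 and HRH2, 222.8 and 276.4, were near the lower limit of the list.

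Adrenal and signalling lists held few members, at shares near the 11.5% of all genes with a gene-end peak. Of 24 adrenocortical steroidogenic genes, 17 had a gene-end vehicle peak and 1, MC2R, had a member. MC2R is the receptor for ACTH, the pituitary hormone that drives the adrenal cortex through cAMP. Both of its gene-end vehicle peaks (chr18:13915978-13916417 and chr18:13915388-13915749), with areas of 338.3 and 215, were absent from EZH2i and CBPi, with the nearest EZH2i peak 91578 bp and 90988 bp away and the nearest CBPi peak 91720 bp and 91130 bp away. Both were listed in FSK, with areas of 291.8 and 460.9, below 79.2% and 56.4% of FSK peaks. In the vehicle list 73.9% and 96.3% of peaks were larger.

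Of Wnt/beta-catenin targets, 2 of 17 had a member, SP5 and CCND1, both absent from FSK alone. SP5 (chr2:170715125-170715699), a transcription factor and direct Wnt target, had areas of 527.3 in vehicle, 280.1 in EZH2i and 614.5 in CBPi, and its nearest FSK peak lay 54919 bp away. CCND1, which encodes cyclin D1, had 355, 728 and 570.1, with an FSK peak 1198 bp away. Of cAMP/PKA/CREB genes, 3 of 18 had a member. All 3 lacked it in FSK, as did 1067 of the 1487 genes with a member. PRKAR1A, a regulatory subunit of protein kinase A, had 593.5 in vehicle, 456.9 in EZH2i and 747.3 in CBPi, and an annotated PRKAR1A start remained under a kept peak. The SGK1 peak (635.4) was absent from every treated list, and an annotated SGK1 start lay under a kept peak. DUSP1, an immediate-early phosphatase of MAP kinases, had a flank of 264.6 that EZH2i and FSK lacked, with their nearest peaks 111 bp and 376 bp away, while in CBPi it overlapped a peak of 4581.1 that covered a neighbouring vehicle peak as well, larger than all but 4.22% of that list.

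Developmental transcription factors had a member in 5 of 33 genes: HOXA9, HOXD10, HOXD13, NEUROD1 and LBX1. The EZH2i list lacked a peak at all 5, FSK at 4 and CBPi at 3, close to the shares over all 1487 genes with a member, of which 1090 lacked one in EZH2i, 1067 in FSK and 527 in CBPi. HOXD13 lacked peaks at both ends in EZH2i (556.3 and 353.7), and NEUROD1 (380.9) lacked its peak in EZH2i alone, with the nearest EZH2i peak 1959 bp away. At none of the 5 genes was there another peak with its summit at a gene end that every list kept, although the annotated HOXD13 start lay under a peak that every list kept. Polycomb and coactivator genes had 3 of 25, namely PCGF2 (213.2, all 3 lists), KDM6A (231.3, both inhibitors) and EP300 (326.1, EZH2i and FSK). KDM6A and EP300 losses were flanks, within 339 bp of a peak of each list that lacked them.

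Cell-cycle and E2F genes had 3 of 32 (CDK2, MCM3 and BUB1), p53 and stress genes 2 of 18 (TNFRSF10B and TRIB3), cholesterol supply 1 of 19 (ABCA1) and housekeeping genes 3 of 19 (TUBB, EEF1A1 and TFRC). At CDK2, MCM3, BUB1, TNFRSF10B, TRIB3, ABCA1, TUBB, EEF1A1 and TFRC every list kept another gene-end peak. EEF1A1, the translation elongation factor, had the largest of these losses, 897.7 at its 3′ end and absent from EZH2i alone. Markers of other cell types were few. Fibroblast genes had gene-end vehicle peaks at 3 of 13, FAP, ACTA2 and VIM, and each had 1 member beside a kept peak. That is 3 of 3 (100%, 43.9 to 100), above the 11.5% of all genes but on 3 genes. The VIM and FAP losses were flanks, within 318 bp of a peak of each list that lacked them. The ACTA2 loss lay 293 bp from a CBPi peak, but 16474 bp and 16471 bp from the nearest EZH2i and FSK peaks. Endothelial genes had 2 of 12, with FLT1 a member, immune genes 3 of 13, with ITGAM a member, and chromaffin genes 4 of 12, with none.

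Several gene families had members at a higher share of their genes. Olfactory receptors had a member at 8 of 12 genes with a gene-end peak (66.7%, 39.1 to 86.2), protocadherins at 9 of 23 (39.1%, 22.2 to 59.2), interleukins, chemokines and their receptors at 14 of 44 (31.8%, 20.0 to 46.6) and histone genes at 14 of 63 (22.2%, 13.7 to 33.9). G protein-coupled receptors had 16 of 77 (20.8%, 13.2 to 31.1). These 5 intervals lay above the 11.5% of all genes. Their genes also had smaller peaks: the median area of a gene's largest gene-end peak was 470.7 for olfactory receptors, 1316.1 for protocadherins, 1158.4 for cytokines, 1630.3 for histones and 1649.4 for these receptors, against 2315.8 for all genes. Smaller peaks were not particular to these 5 families. Medians were 1303.4 for respiratory complex I, 1568.4 for C2H2 zinc finger genes and 1652.2 for cytosolic ribosomal proteins. They were 1656.3 for mitochondrial ribosomal proteins, 1868.7 for proteasome subunits and 2016.5 for DEAD/DEAH box helicases. None of these families stood above 11.5%. The part of peak size in the family shares was not tested. Some of these families hold similar gene copies in clusters, and how reads were placed there was not checked.

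The lists that lacked the peaks were as follows. Of the 14 histone genes, 11 lacked a peak in FSK, 6 in EZH2i and 1 in CBPi, and H2BC6 (670) and H3C6 (532.8) lacked theirs in FSK alone. Every gene-end peak was a member at only 4 of the 14, and the others had another that every list kept. At H3C6 an FSK peak lay 415 bp away, and an annotated start lay under a kept peak. Of the 8 olfactory receptors, 7 lacked a peak in CBPi, 6 in EZH2i and 3 in FSK, OR2AJ1 (598.7) among them in both inhibitor lists. All 9 protocadherins lacked one in EZH2i, 7 in FSK and 3 in CBPi. Of the 1487 genes in all, 1090 lacked a peak in EZH2i, 1067 in FSK and 527 in CBPi, and no difference of a family from these shares was tested. IL6, the inflammatory cytokine, lacked the peaks at both of its ends in FSK, the larger at 478.9. Peaks at both ends were also lost at PSMA7 and MVB12A in FSK, at FABP5 in CBPi and at ARHGAP39 in EZH2i.

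Families of broadly used genes stood at or below the overall share. C2H2 zinc finger genes had 44 of 456 (9.65%), cytosolic ribosomal proteins 7 of 81 (8.64%), mitochondrial ribosomal proteins 7 of 73 (9.59%), respiratory complex I 2 of 35 (5.71%), DEAD/DEAH box helicases 3 of 51 (5.88%) and proteasome subunits 4 of 35 (11.4%). Each of these intervals included 11.5%. Solute carriers, with 34 of 245 (13.9%), and potassium, sodium and calcium channels, with 12 of 82 (14.6%), were close to it as well. Zinc finger genes lacked peaks in EZH2i at 30 genes and in FSK at 29, but in CBPi at 7. The ribosomal protein genes RPL37A (710.1, EZH2i), RPL35A (412.6, FSK) and RPS21 (328.3, EZH2i and FSK) had summits 20, 1 and 0 bp from the start. At RPL35A an FSK peak lay 121 bp away, and every list kept another gene-end peak. The nearest peak of the list concerned was 40687 bp away at RPL37A, and 19213 bp (EZH2i) and 19829 bp (FSK) away at RPS21.

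**Figure D3:**
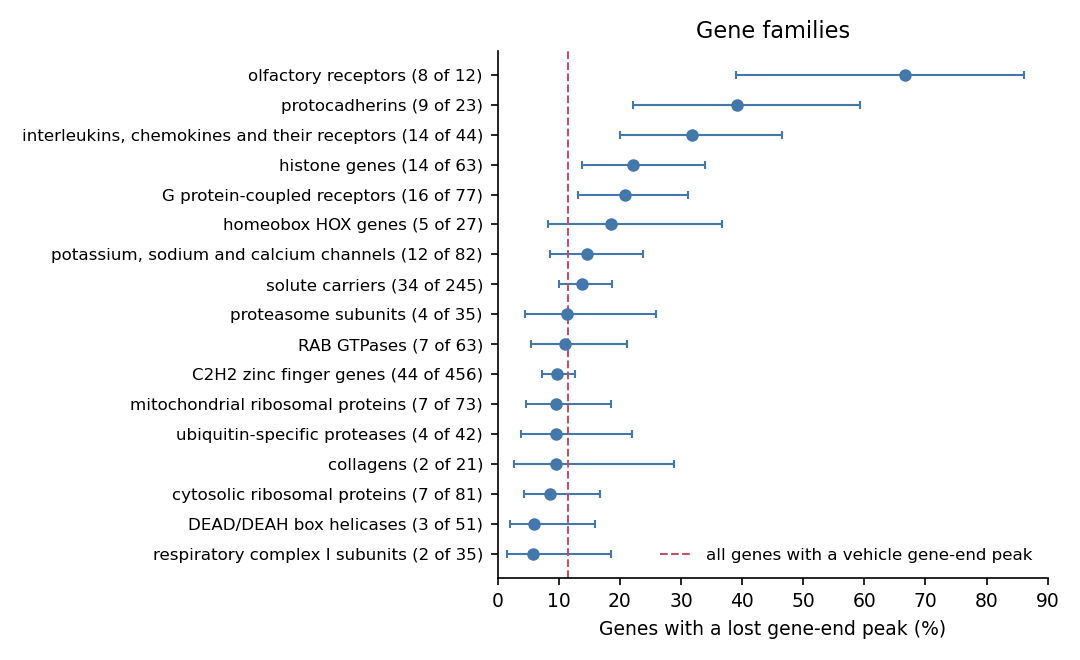
Share of genes with at least 1 lost gene-end peak, of those with a gene-end vehicle peak, for 17 gene families (point) with Wilson 95% intervals (bars). The dashed line marks 11.5% for all genes. Olfactory receptors, protocadherins, cytokines, histones and G protein-coupled receptors have intervals to its right, and keratins (2 of 6) are not drawn.

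Promoter sequence differed between the lists, a property the choice of members did not use. A summit lay in a promoter window for 313 members and 6403 kept peaks. CpG-poor windows, with an observed over expected CpG ratio below 0.4 as in GNRHR, EGF, MC2R and KCNK2 above, made up 24.3% of the members (19.9 to 29.3) and 2.66% of kept peaks. Among kept peaks in the 2 lowest area groups the share was 10.0% (7.42 to 13.4), and among all 22132 windows it was 27.8%. That kept set is not matched in area to the members, since 78.4% of the lowest group and 30.6% of the next were lost. In the lowest group 81.8% of peaks at CpG-poor windows and 69.8% at ratios of 0.7 or more were lost, with overlapping intervals. In the next group the shares were 48.2% and 20.07%, and the intervals did not overlap. Of members lost from the CBPi list 46.9% were CpG-poor (45 of 96, 37.2 to 56.8), against 27.9% of 190 for EZH2i and 22.4% of 232 for FSK. The 3 sets share peaks. Among the separate combinations, FSK alone had 12.2% of 98, EZH2i alone 8 of 50 windows and EZH2i with FSK 15.9% of 69, while the combinations with CBPi had 42.9% to 55.0% of 11 to 51 windows each.

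**Figure D4:**
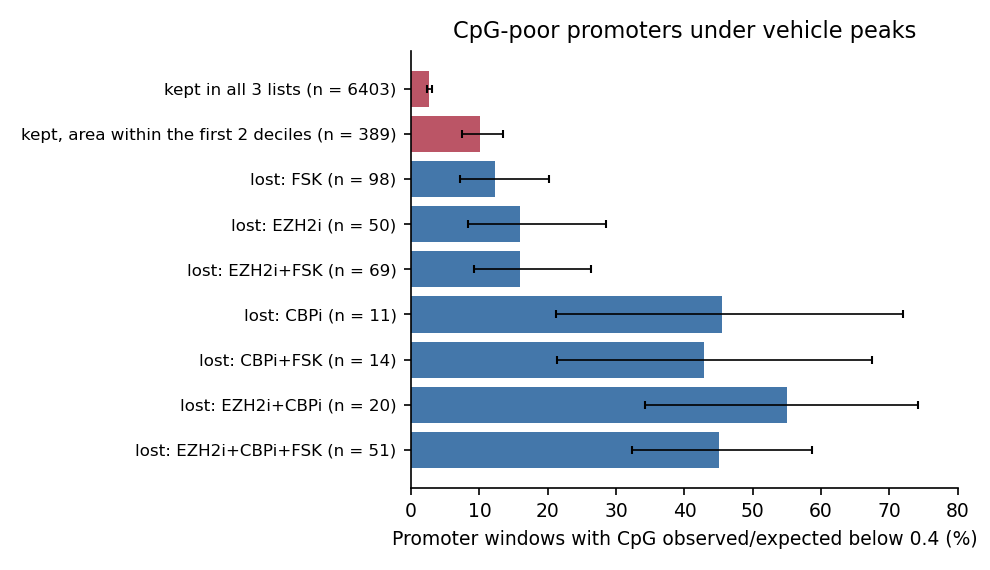
Share of promoter windows with an observed over expected CpG ratio below 0.4, for kept peaks and for lost peaks by the lists that lacked them, with Wilson 95% intervals. Bars start at 0. The 4 combinations that include CBPi lie at 42.9% or above, and FSK alone lies at 12.2%.

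A comparison inside the lowest area groups gave a related picture. In the 2 lowest area groups together, CBPi lacked 39.6% of peaks at CpG-poor windows (44 of 111, 31.0 to 48.9) and 7.34% of those at windows with a ratio of 0.7 or more (34 of 463, 5.30 to 10.1). EZH2i lacked 46.0% and 21.6%, and FSK 45.0% and 27.9%. The intervals of the 3 lists overlapped at CpG-poor windows, whereas at CpG-rich windows the CBPi interval lay below the other two. Within these groups the CpG-poor peaks were the smaller, with median areas of 256.3 against 312.3 in the lowest group and 503.5 against 592.8 in the next. The lowest group held 55 of 111 CpG-poor and 159 of 463 CpG-rich peaks, so the pooled shares mix areas. In that group CBPi lacked 63.6% at CpG-poor and 17.6% at CpG-rich windows, EZH2i 65.5% and 48.4%, and FSK 56.4% and 52.8%. Only the CBPi intervals did not overlap there. In the next group the shares were 16.1% and 1.97%, 26.8% and 7.57%, and 33.9% and 14.8%, with no overlap. At equal list lengths the CpG-poor share of lost peaks was 42.9% of 35 windows for CBPi, 34.0% of 50 for EZH2i and 18.6% of 172 for FSK. That setting was chosen after the data were seen. With so few windows, CBPi and EZH2i were not shown to differ there.

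Of 14 motifs searched on both strands, the TATA-box letters TATAAA were in 12.1% of member windows (8.97 to 16.2), 6.17% of windows under kept peaks of the 2 lowest area groups and 9.46% of all windows. The GC-box letters GGGCGG were in 53.04%, 71.0% and 56.3%. The cAMP response element TGACGTCA was in 3.20% of member windows, 3.09% of those small kept ones and 2.26% of all, and in 6.12% of windows lost from FSK alone (6 of 98, 2.84 to 12.7), an interval that included 3.56%, the share of all kept windows. The YY1 letters AAGATGGC were in 11 of 98 windows lost from FSK alone (11.2%, 6.38 to 19.0) and in 0 of 96 lost from CBPi (upper bound 3.85%). They were in 5.58% of kept windows, 7.71% (5.46 to 10.8) of the small kept ones and 3.54% of all windows. The small kept share lay inside the interval of FSK alone, and the share of all windows lay inside that of CBPi. GGGCGG holds a CpG, so its share is tied to CpG content. The small kept peaks were not matched in area to the members.

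By chromosome, 18.0% of gene-end peaks were lost on chromosome 22 (44 of 244) and 17.3% on chromosome 20 (58 of 335), against 6.49% on chromosome 3 (48 of 740) and 7.47% on chromosome 9 (41 of 549). Gene-end peaks were smaller on the chromosomes with more losses, with median areas of 1049.2 on chromosome 22 and 1428.4 on chromosome 20, against 2785.8 on chromosome 3 and 3006.2 on chromosome 9. The part of peak size in these shares was not tested. Chromosome 19 had a median of 1211.0 and 10.4% lost (86 of 829).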

How the data were processed

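ATAC-seq peaks of 8 NCI-H295R libraries came as 1 deposited peak list per group of 2 libraries. The submitters' processing notes name Bowtie2, Genrich, deepTools 2.0 and hg38. The sources used here do not give the caller's settings or how libraries were combined. The authors' values per peak are an area of significance (signal), which was 200 or more in the vehicle list, a −log10 p and a score made from area and width. The deposited signal and −log10 p were used within a list only, and the deposited score was not analysed. The deposited summit offset located each summit.

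Gene ends, starts, strand (15812 of 19974 genes) and promoter windows came from RefSeq GRCh38.p14 tables, of the same build as hg38. Overlaps, CpG ratios and motif searches were computed in Python 3.11.15 with pandas 2.3.3 and Wilson intervals in scipy 1.17.1. Only the overlaps, the distances between peaks and the search for gene ends were checked on simulated intervals. Named members are the 10 largest areas absent from all 3 lists, the 5 largest of each other combination, up to 5 per gene list (13 lists) and 3 per family (18 families), and up to 5 genes with both ends lost. A member that the rule names is not reported here. Genes outside that rule were named after their values were seen. Members and lists were chosen with earlier results of these data known. Alternatives were other window sizes, overlap rules, equal list lengths and the larger vehicle peaks.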

Additional observations from a re-analysis of the deposited data

How the results depend on the processing

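With gene ends taken as 500 bp, 881 peaks were absent from at least 1 list, 187 from all 3, 620 from EZH2i, 302 from CBPi and 633 from FSK. With 2 kb the counts were 2405, 621, 1820, 990 and 1662. With every list at 41086 peaks they were 703, 73, 278, 186 and 567, and with only vehicle peaks above the median area 150, 8, 72, 26 and 100. The number of members at a start was 494 with a 500 bp window. The share of gene-end peaks absent from at least 1 list was 8.25% at 500 bp, 11.3% at 1 kb and 16.2% at 2 kb, and the cause was not tested. The counts at equal length and above the median leave out small vehicle peaks. The other 22 of 43 alternative values were within 1.5 times the main count or, for CpG shares, within its interval. No paired analysis was possible because each group had 1 peak list. For the same reason no replicate could be left out in turn. Without replicate lists or depth, an absent peak cannot be told from a call just under the threshold.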
